A study of Mus musculus with 32 samples.

Results

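The 10 genes followed here mark the sinusoidal endothelium of the liver and were measured in RNA-seq of whole mouse liver. They were Stab1, Stab2, Lyve1, Clec4g, Fcgr2b, Flt4, Kdr, Pecam1, Cdh5 and Gata4, chosen by name as known markers, and all 10 were found among the 55487 genes of the count table. The series held 32 libraries in 4 groups of 8. Mice either had the FAAH S268D genotype, in which one residue of the enzyme that breaks down fatty acid amides is changed, or were wild type (WT). The series text gives 28 weeks of HFFC feeding, plus or minus ARA, and the sample labels name the diets NASH-AA and NASH, so that the groups are FAAH S268D NASH-AA, FAAH S268D NASH, WT NASH-AA and WT NASH. HFFC feeding was common to all 4 groups, and no liver from another diet was compared here. Sex, age at the start and animal identity are not given in the labels, so p-values measure the spread between libraries, which may be partly technical.

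Liver sinusoidal endothelial cells line the capillaries between the plates of hepatocytes. Unlike most capillary endothelium they are perforated by open pores and rest on little basement membrane, and they are known as the main scavenger cells of the blood, taking up modified proteins, hyaluronan and small immune complexes through endocytic receptors. Signals through VEGF receptors keep them in this state. In fatty and fibrotic liver they are known to lose pores and scavenger receptors and to gain features of continuous capillaries, a change called capillarisation. The 10 markers cover these sides of the cell. Stab1, Stab2, Lyve1, Clec4g and Fcgr2b are surface receptors for clearance and binding, Flt4 and Kdr are VEGF receptors, Pecam1 and Cdh5 are adhesion proteins of cell junctions, and Gata4 is a transcription factor needed for the sinusoidal type. Several are not exclusive to these cells. Stab1, Lyve1 and Fcgr2b are also made by subsets of macrophages, Lyve1 and Flt4 by lymphatic endothelium, Pecam1 and Cdh5 by endothelium in general, and Gata4 by stellate cells.

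Libraries held between 3851626 and 34370179 counts, with a median of 22896702. The shallowest was FAAH S268D NASH replicate 1, and the next held 14743252. Levels are given as CPM, the count of a gene relative to the scaled total of its library, and a gene passed the test at a Benjamini-Hochberg adjusted p under 0.05 in limma-voom over 14903 tested genes. Faah itself ranged from 166 to 193 CPM in FAAH S268D NASH-AA, 163 to 227 in FAAH S268D NASH, 140 to 166 in WT NASH-AA and 133 to 188 in WT NASH. A substitution in the protein cannot be read from these counts. The libraries were rich in hepatocyte RNA, as fits the labelled tissue, with 12 hepatocyte markers summing to between 70617 and 116530 CPM.

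Sequences before the start sites are shown for 4 markers. Flt4 and Stab1 are the markers that differed most between diets in WT mice, Stab2 is the closest relative of Stab1 and the marker with the highest CPM, and Clec4g is the marker with the highest level per kilobase and the one positive value in that comparison. Each line gives 250 bases before to 50 bases after the RefSeq gene start on GRCm38.p6, 5′ to 3′ on the gene's strand. Capitals mark 6-base words that GATA factors (AGATAA or AGATAG, and TGATAA or TGATAG) or ETS factors (AGGAAG or CGGAAG) are known to bind, on either strand. GATA factors include the marker Gata4, and ETS factors are regulators of endothelial genes in general.

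Flt4, chr11:49609429-49609728, + strand: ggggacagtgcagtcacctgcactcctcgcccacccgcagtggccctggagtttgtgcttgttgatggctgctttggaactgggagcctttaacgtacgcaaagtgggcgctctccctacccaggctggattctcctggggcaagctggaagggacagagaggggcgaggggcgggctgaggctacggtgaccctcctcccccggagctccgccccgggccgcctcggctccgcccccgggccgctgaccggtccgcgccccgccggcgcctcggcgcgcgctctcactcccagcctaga

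Stab1, chr14:31168592-31168891, - strand: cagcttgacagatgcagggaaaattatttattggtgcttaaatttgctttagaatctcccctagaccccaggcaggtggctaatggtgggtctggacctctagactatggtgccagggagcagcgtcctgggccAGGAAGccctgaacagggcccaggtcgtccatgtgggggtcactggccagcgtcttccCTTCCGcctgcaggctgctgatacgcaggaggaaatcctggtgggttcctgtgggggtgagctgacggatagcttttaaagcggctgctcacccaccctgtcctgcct

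Stab2, chr10:87007893-87008192, - strand: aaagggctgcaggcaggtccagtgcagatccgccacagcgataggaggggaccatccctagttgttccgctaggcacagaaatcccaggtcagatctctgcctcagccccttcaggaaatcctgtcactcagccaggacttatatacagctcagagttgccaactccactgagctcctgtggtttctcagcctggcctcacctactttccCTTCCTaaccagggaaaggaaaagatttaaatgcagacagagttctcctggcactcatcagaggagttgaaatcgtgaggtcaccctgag

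Clec4g, chr8:3720602-3720901, - strand: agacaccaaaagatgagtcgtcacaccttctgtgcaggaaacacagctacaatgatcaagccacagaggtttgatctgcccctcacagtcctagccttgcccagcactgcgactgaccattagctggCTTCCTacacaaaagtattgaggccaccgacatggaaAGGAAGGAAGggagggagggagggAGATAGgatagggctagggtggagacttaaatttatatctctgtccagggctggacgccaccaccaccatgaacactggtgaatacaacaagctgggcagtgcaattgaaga

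The RefSeq promoter table held 6 of the 10 markers, Stab1, Stab2, Clec4g, Fcgr2b, Flt4 and Kdr. A GATA word stood in 2 of the 6 windows and an ETS word in 3 of the 6. Among 32851 mouse promoters of the same length, 29.8% held such a GATA word and 46.5% such an ETS word. The GATA word of Clec4g, AGATAG, began 62 bases before the start, and that of Fcgr2b lay 12 bases after it on the opposite strand. Clec4g also held 3 ETS words, at 123, 86 and 82 bases before the start, of which the last pair overlap. Stab1 held ETS words at 116 and 58 bases before the start and Stab2 held 1 at 40 bases before it. Neither the window of Flt4 nor that of Kdr held any of these words. A match of letters is a description of the sequence and not a binding site.

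All 10 markers were detected in every library, and the lowest count of any was 41, for Lyve1. In CPM, which do not correct for length, Stab2 had the highest mean over the 32 libraries (81.7) and Lyve1 the lowest (14.5). Per kilobase of exon the order was different. Clec4g led with a mean of 17.1 CPM per kilobase over all libraries, followed by Cdh5 at 11 and Stab2 at 9.33 CPM per kilobase. Fcgr2b had 8.68, Stab1 6.33, Gata4 6.03 and Flt4 5.4 CPM per kilobase, and Kdr (5.27), Lyve1 (4.96) and Pecam1 (4.66 CPM per kilobase) closed the order. In WT NASH livers alone, neighbours were often not separated beyond their spread. There Flt4 had 6.22 ± 1, Gata4 6.21 ± 0.603, Lyve1 5.91 ± 1.69, Kdr 5.39 ± 0.876 and Pecam1 5.15 ± 1.22 CPM per kilobase, so that each mean lay within 1 SD of the next (SD, n = 8). Stab2 (10.1 ± 1.37) and Fcgr2b (9.48 ± 1.53 CPM per kilobase, n = 8) likewise overlapped in WT NASH livers. Clec4g had 16.2 ± 3.05 and Cdh5 12.8 ± 2.36 CPM per kilobase in the same livers (SD, n = 8).

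The markers also differed in how much they varied between livers of the same group. Gata4 was the steadiest, with a within-group SD of 0.15 on the log2 scale and a highest library only 1.47 times the lowest. Lyve1 varied most, with an SD of 0.51 on the log2 scale and 24.9 CPM in the highest library against 6.27 in the lowest. The other 8 markers had within-group SDs between 0.24 (Stab2) and 0.35 (Kdr) on the log2 scale.

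**Figure D1:**
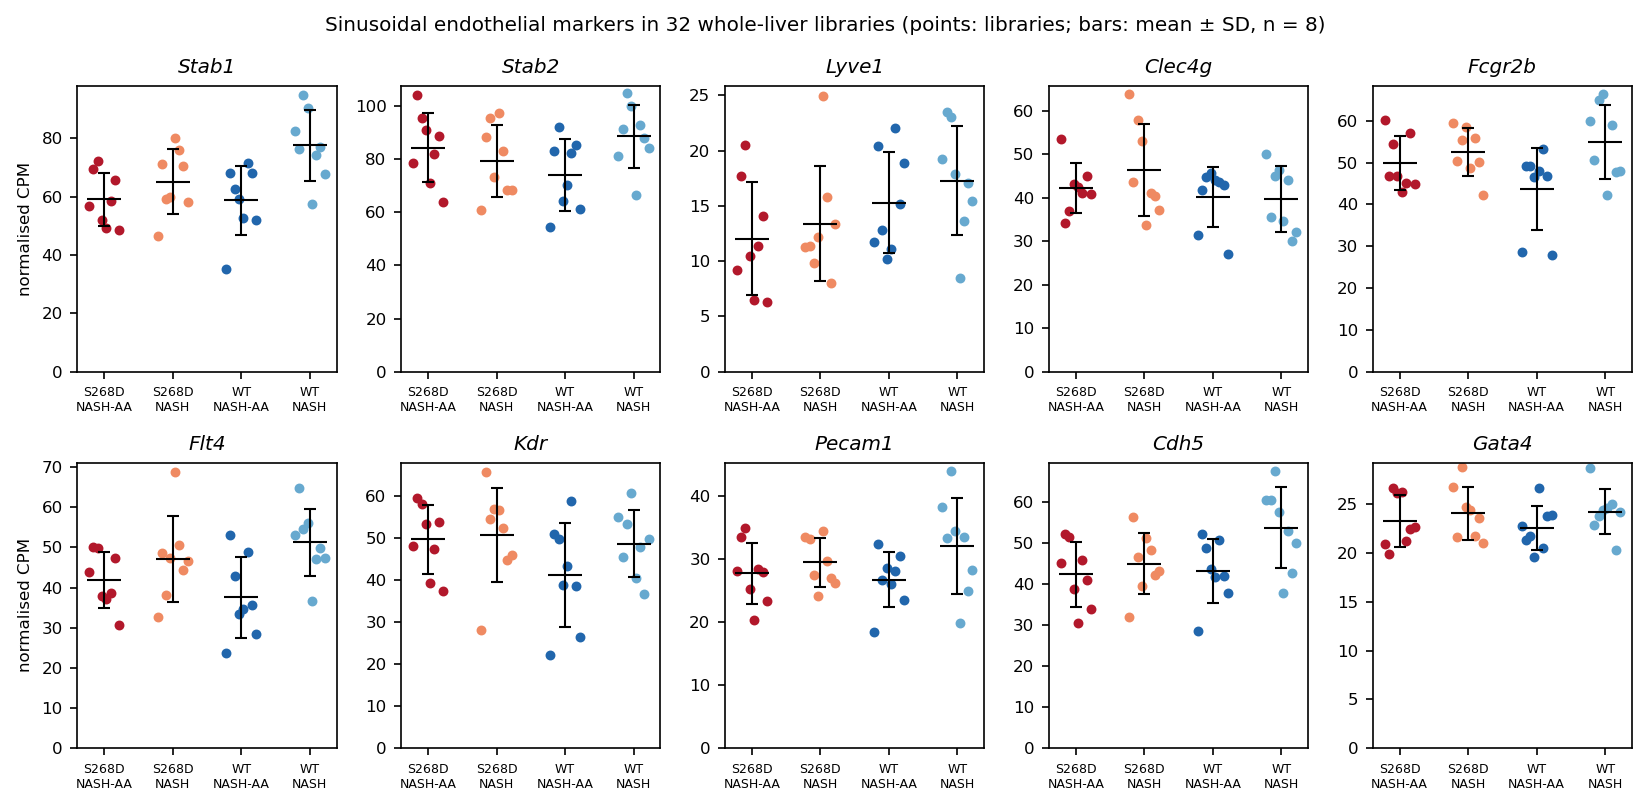
Level of each marker in normalised CPM (vertical axis, linear, from 0) in the 4 groups of 8 libraries, with points for libraries and bars for the mean ± SD. Flt4 and Stab1 averaged 37.6 and 58.7 CPM in WT NASH-AA against 51.2 and 77.6 CPM in WT NASH, with overlapping libraries, while Gata4 averaged between 22.5 and 24.2 CPM in every group.

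The first comparison set WT livers on NASH-AA against WT livers on NASH. Flt4, the receptor for VEGF-C and VEGF-D, and Stab1, a scavenger receptor, fell in WT NASH-AA, to 37.6 ± 10 CPM for Flt4 against 51.2 ± 8.24 in WT NASH, and to 58.7 ± 11.9 CPM for Stab1 against 77.6 ± 12 in WT NASH (SD, n = 8 each). The other 8 markers did not pass the test. Thus 2 of 10 markers were called lower, where 2.97% of all tested genes were called lower and 4.41% in either direction. Of the 10 fitted differences 9 were negative, with a median of -0.28 on the log2 scale, while the median over all tested genes was 0.00 and 48.9% of them were negative. In RNA from whole liver, fewer endothelial cells and less RNA per endothelial cell cannot be told apart.

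Flt4 lay at 23.7, 35.2 and 53.2 CPM (lowest, median, highest) in WT NASH-AA and at 36.6, 51.5 and 64.9 CPM in WT NASH. The groups overlapped, but 7 of 8 WT NASH-AA libraries lay below the median of WT NASH and 8 of 8 WT NASH libraries above the median of WT NASH-AA. The log2 fold change of Flt4 was -0.47 ± 0.14 (SE), a ratio of 0.719, with limma-voom adjusted p = 0.0493. Flt4 is the gene of chromosome 11 at 49609263 to 49652739 on the plus strand (GRCm38).

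For Stab1 the lowest, median and highest values were 35.2, 61 and 71.6 CPM in WT NASH-AA and 57.4, 76.8 and 95 CPM in WT NASH. All 8 WT NASH-AA libraries lay below the WT NASH median, and 7 of 8 WT NASH libraries above the WT NASH-AA median, with overlap between the groups. The log2 fold change of Stab1 was -0.42 ± 0.13 (SE), a ratio of 0.749, with limma-voom adjusted p = 0.0496. Stab1 lies on chromosome 14 at 31139013 to 31168641 on the minus strand.

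Both calls stood at the edge of the threshold. With scaling factors computed from all genes with counts in place of the tested genes, the adjusted p was 0.0511 for Flt4 and 0.0533 for Stab1, and neither passed. This was 1 of 9 settings, among 14 tried, that lost both calls. Leaving out WT NASH replicate 5, the WT NASH library with the lowest markers, brought 5 markers past the threshold (Stab1, Stab2, Fcgr2b, Flt4 and Cdh5). That fit called 2190 genes in all, against 657 with every library kept. Leaving out WT NASH-AA replicate 1, the library with the lowest markers of all, left 0. Such losses were not particular to that library. The call of Stab1 was lost in 21 of 32 fits with 1 library left out and that of Flt4 in 23, including fits without a FAAH S268D library. The log2 fold changes kept their sign in all 14 settings, between -0.60 and -0.34 for Flt4 and between -0.69 and -0.20 for Stab1.

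Fcgr2b, the inhibitory receptor for immunoglobulin G that clears small immune complexes, had 28, 47.3 and 53.2 CPM (lowest, median, highest) in WT NASH-AA against 42.3, 54.9 and 66.4 CPM in WT NASH. Its log2 fold change was -0.35 (95% confidence interval -0.59 to -0.10) and its adjusted p 0.0762 in limma-voom, so it did not pass, although all 8 WT NASH-AA libraries lay below the median of WT NASH. Cdh5, the cadherin of endothelial junctions, had 28.7, 42.9 and 52.4 CPM in WT NASH-AA against 37.9, 55.4 and 67.8 CPM in WT NASH. All 8 WT NASH-AA libraries were again below the WT NASH median, with a log2 fold change of -0.31 (interval -0.57 to -0.05) and a limma-voom adjusted p of 0.126. Stab2, the hyaluronan clearance receptor, averaged 74.1 ± 13.4 CPM in WT NASH-AA and 88.7 ± 12 CPM in WT NASH (SD, n = 8 each), a log2 fold change of -0.27 (interval -0.50 to -0.04). These 3 markers and the called pair were the 5 with an unadjusted p under 0.05 in limma-voom. Over all tested genes 3636 of 14903 had such a value in this comparison.

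For Kdr, the main receptor of VEGF-A, the log2 fold change in WT livers was -0.29 (interval -0.61 to 0.03), and for Pecam1, an adhesion protein of endothelium, platelets and leukocytes, it was -0.24 (interval -0.50 to 0.03). Lyve1, a hyaluronan receptor, had -0.16 (interval -0.63 to 0.31), the widest interval of the 10, and Gata4 had -0.10 (interval -0.25 to 0.05). Clec4g, a C-type lectin, was the one marker with a positive value. Its libraries spanned 27.2 to 45.7 CPM in WT NASH-AA and 30 to 50 CPM in WT NASH, with a log2 fold change of 0.02 (interval -0.24 to 0.28).

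The labels number the libraries 1 to 32, and each group fell partly into each range of 16. Within library numbers 1 to 16 (3 WT NASH-AA against 4 WT NASH libraries) all 10 markers were negative, with a median log2 fold change of -0.53. Within 17 to 32 (5 against 4) 7 of 10 were negative, with a median of -0.11. Flt4 had -0.59 ± 0.24 in the first range and -0.34 ± 0.14 in the second, and Stab1 had -0.69 ± 0.21 and -0.20 ± 0.13 (log2 fold change ± SE). No marker passed within either range, where limma-voom gave adjusted p-values for these markers of 0.411 and 0.207 (Flt4) and of 0.372 and 0.404 (Stab1). Of the libraries that stood apart, WT NASH-AA replicate 1 is number 2 and WT NASH replicate 5 is number 17.

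**Figure D2:**
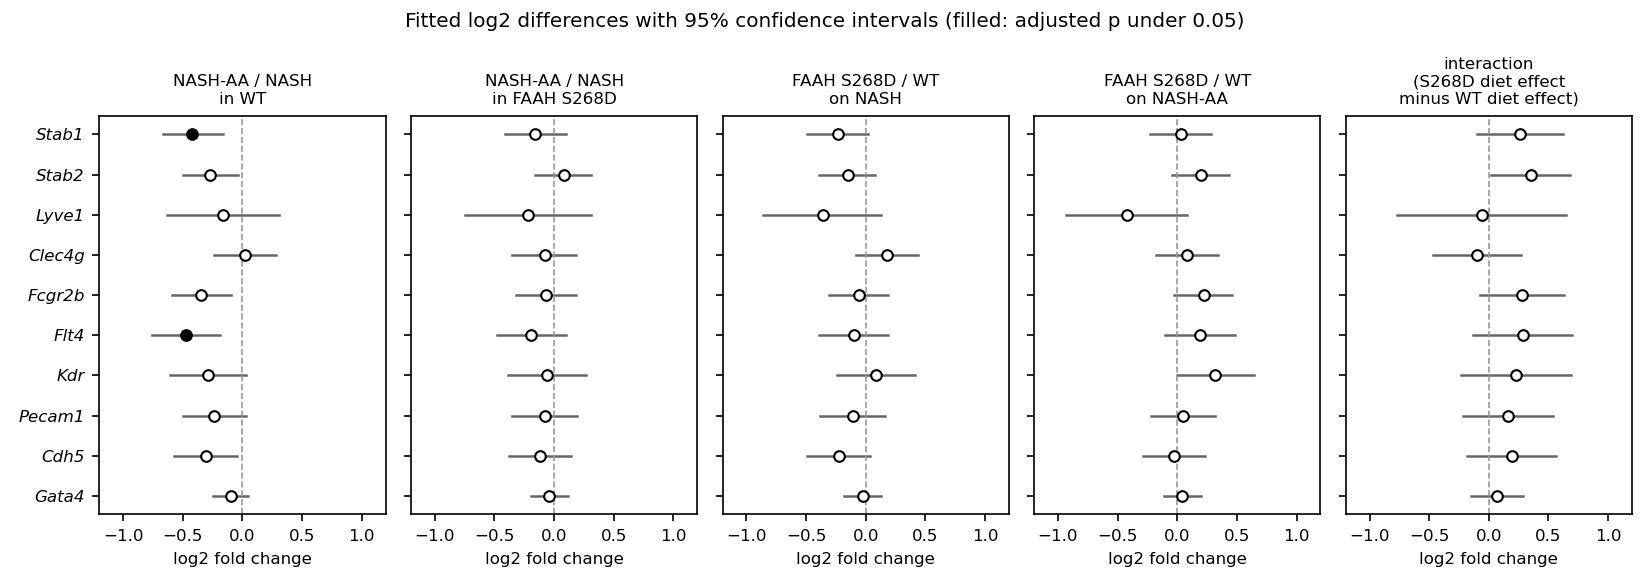
Log2 fold change (horizontal axis) of each marker in the 4 comparisons of 2 groups and in the interaction, with 95% confidence intervals and filled points for adjusted p under 0.05. Only Flt4 (-0.47) and Stab1 (-0.42) in WT livers are filled, and in that panel 9 of 10 points lie left of 0.

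In FAAH S268D livers the same diet comparison called 0 of 10 markers, where 0.0939% of all tested genes were called. None had an unadjusted p under 0.05 in limma-voom, where 1843 of 14903 tested genes did, and limma-trend also called 0. Fitted log2 fold changes ran from -0.22 (Lyve1) to 0.08 (Stab2), with 9 negative and a median of -0.08. Flt4 averaged 41.9 ± 6.93 CPM in FAAH S268D NASH-AA and 47.2 ± 10.6 CPM in FAAH S268D NASH (SD, n = 8 each), a log2 fold change of -0.19 (interval -0.48 to 0.10). Stab1 averaged 59.1 ± 9.15 CPM in FAAH S268D NASH-AA and 65.2 ± 11.2 CPM in FAAH S268D NASH, a log2 fold change of -0.16 (interval -0.41 to 0.10). A call in WT and none in FAAH S268D does not show that the genotypes differ. Within library numbers 1 to 16 (4 FAAH S268D NASH-AA against 5 FAAH S268D NASH libraries) the median was -0.01 and 5 markers were negative, and within 17 to 32 (4 against 3) it was -0.14 with 7 negative.

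The interaction tested the difference between the diet effects directly, as the effect in FAAH S268D minus that in WT. It called 0 markers and 0 genes in all (0% of 14903), with 627 genes at an unadjusted p under 0.05 in limma-voom, and limma-trend called 0 as well. The markers' lowest adjusted p was 0.906. Stab2 was the one marker at an unadjusted p under 0.05, with a log2 difference of 0.35 (interval 0.02 to 0.68). Stab2 averaged 84.4 ± 13.2 CPM in FAAH S268D NASH-AA, 79.5 ± 13.6 in FAAH S268D NASH, 74.1 ± 13.4 in WT NASH-AA and 88.7 ± 12 in WT NASH (SD, n = 8 each), so the mean was higher on NASH-AA in FAAH S268D and lower in WT. The 4 groups overlapped, and the value did not pass. Over the 10 markers the interaction was positive for 8, with a median of 0.21 against 0.01 over all tested genes. That median was 0.52 within library numbers 1 to 16 and -0.04 within 17 to 32.

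The genotype comparison on NASH set FAAH S268D NASH against WT NASH. Limma-voom called 0 of 10 markers, limma-trend called 0, and none had an unadjusted p under 0.05, in a comparison that called 9.18% of all tested genes and 6.29% lower. Over all tested genes 3827 of 14903 had an unadjusted p under 0.05 in limma-voom there. Lyve1 had the largest negative value, with 8.07, 11.8 and 24.9 CPM (lowest, median, highest) in FAAH S268D NASH and 8.44, 17.5 and 23.5 CPM in WT NASH. The 2 ranges nearly coincided, although 7 of 8 FAAH S268D NASH libraries lay below the WT NASH median, and the log2 fold change was -0.36 (interval -0.86 to 0.13). Stab1 had -0.23 (interval -0.49 to 0.02), Cdh5 -0.22 (interval -0.49 to 0.04) and Stab2 -0.15 (interval -0.39 to 0.08) on the log2 scale. Clec4g was the highest at 0.18 (interval -0.08 to 0.44), with 33.8 to 63.9 CPM in FAAH S268D NASH and 30 to 50 CPM in WT NASH. Over the 10 markers 8 values were negative, with a median of -0.10. The median was -0.23 within library numbers 1 to 16 and -0.01 within 17 to 32.

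On NASH-AA, FAAH S268D livers again showed 0 of 10 markers called against WT, where 0.658% of all tested genes were called. None had an unadjusted p under 0.05 in limma-voom, where 2317 of 14903 tested genes did, and limma-trend called 0. Here 8 of 10 values were positive, with a median of 0.06. Kdr had the highest, with 37.3, 50.8 and 59.5 CPM (lowest, median, highest) in FAAH S268D NASH-AA and 22.3, 41.1 and 58.8 CPM in WT NASH-AA. Its log2 fold change was 0.32 (interval -0.00 to 0.64), and the low end of WT NASH-AA was set by replicates 1 and 8. Lyve1 had the lowest value, -0.42 (interval -0.93 to 0.08), with 6.27, 10.9 and 20.5 CPM in FAAH S268D NASH-AA and 10.2, 14 and 22 CPM in WT NASH-AA. Its 2 lowest libraries, FAAH S268D NASH-AA replicates 5 and 8, were also the lowest of that group over the 10 markers together. The median was 0.23 within library numbers 1 to 16 and 0.05 within 17 to 32. The diet comparison in WT and the genotype comparison on NASH share the WT NASH libraries, and the diet comparison in WT and the genotype comparison on NASH-AA share the WT NASH-AA libraries.

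Liver by liver, most of the markers varied together. Across the 32 libraries, the 28 pairs among the 8 markers other than Clec4g and Gata4 had Pearson correlations of log2 CPM between 0.18 and 0.89, with a median of 0.68. This set of 8 was chosen after the values were seen. Stab1 and Cdh5 were the closest pair at 0.89 (0.86 after each group's mean was removed), and Flt4 was most like Stab1 at 0.87. Stab2 and Kdr were most like each other at 0.78, Pecam1 was most like Cdh5 at 0.82, and Lyve1 was also most like Cdh5 at 0.67. The correlations describe 32 points that share library depth, scaling and the mixture of cells in each piece of liver.

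Clec4g and Gata4 did not follow the rest. Clec4g correlated with the other 9 markers between -0.28 (Lyve1) and 0.69 (Fcgr2b), with a median of 0.08. With Fcgr2b the value within groups was 0.78, and Fcgr2b in turn also went with the larger set, at 0.57 to 0.68 with Stab1, Stab2, Flt4, Kdr, Pecam1 and Cdh5. Gata4 correlated between -0.11 and 0.32 with the others, with a median of -0.01, and it also had the smallest spread between livers.

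**Figure D3:**
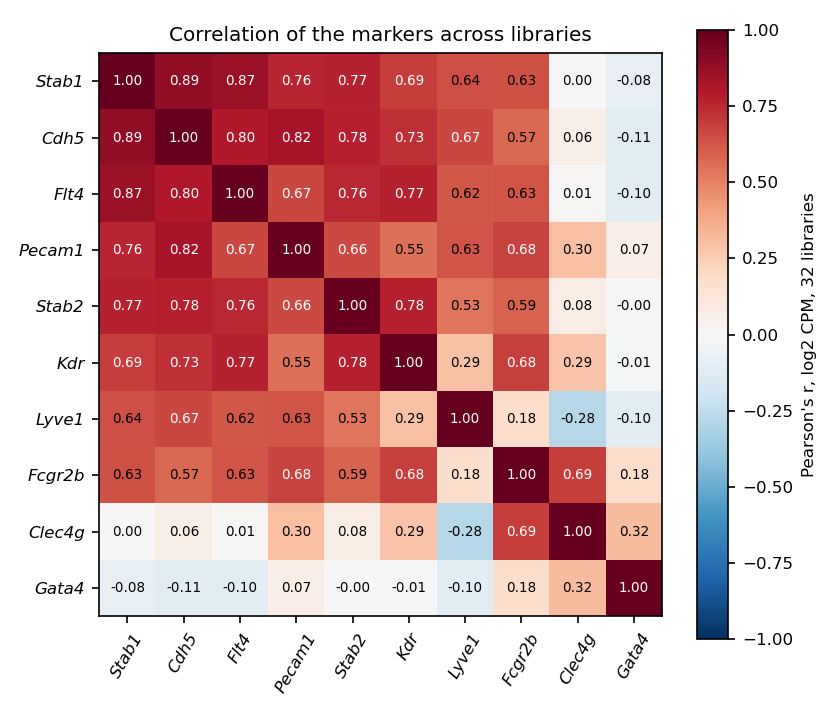
Pearson's r of log2 CPM over 32 libraries for each pair of markers, red for positive and blue for negative. The block from Stab1 to Fcgr2b is positive throughout (0.18 to 0.89), and the rows of Clec4g and Gata4 are pale except for Clec4g with Fcgr2b (0.69).

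The genes most like the markers were sought over all tested genes, leaving out predicted genes without a name. The measure was correlation with the mean standardised log2 CPM of the 10 markers over the 32 libraries. The 8 highest were Lrrc8c (0.90), Tek (0.89), Lhfpl2 (0.89), Mmrn2 (0.88), Sema6a (0.87), Plxnc1 (0.86), Adgrl4 (0.86) and Adgrf5 (0.85). Tek is the angiopoietin receptor of endothelium, Mmrn2 an endothelial matrix protein, and Adgrl4 and Adgrf5 are adhesion receptors found on endothelium. Lrrc8c is a subunit of volume-regulated anion channels, Plxnc1 is a semaphorin receptor and Sema6a a semaphorin. None of the 8 passed the test in any of the 5 comparisons. In WT livers their log2 fold changes with the NASH-AA diet ran from -0.42 (Plxnc1) to -0.21 (Adgrf5), with Tek at the lowest adjusted p of the 8 (0.0664 in limma-voom). The WT libraries are among the 32 that chose these genes, so the sign they share with the markers follows in part from that choice and is no separate result.

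A mean over the 10 markers of each library's log2 deviation from the 32-library average placed single livers. WT NASH-AA replicate 1 was lowest of all at -0.61, with all 10 markers below average, and WT NASH-AA replicate 8 followed at -0.36 with 8 below. FAAH S268D NASH-AA replicate 8 stood at -0.35 with all 10 below average. Within WT NASH, replicate 5 stood at -0.27 with 9 markers below average, while replicates 1, 3 and 4 had all 10 above it, up to 0.40 for replicate 3. FAAH S268D NASH was the tightest group, between -0.14 and 0.26. Its shallow replicate 1 had -0.14, with Kdr at 28.2 CPM, the lowest of its group, and Clec4g at 63.9 CPM, the highest of all 32.

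**Figure D4:**
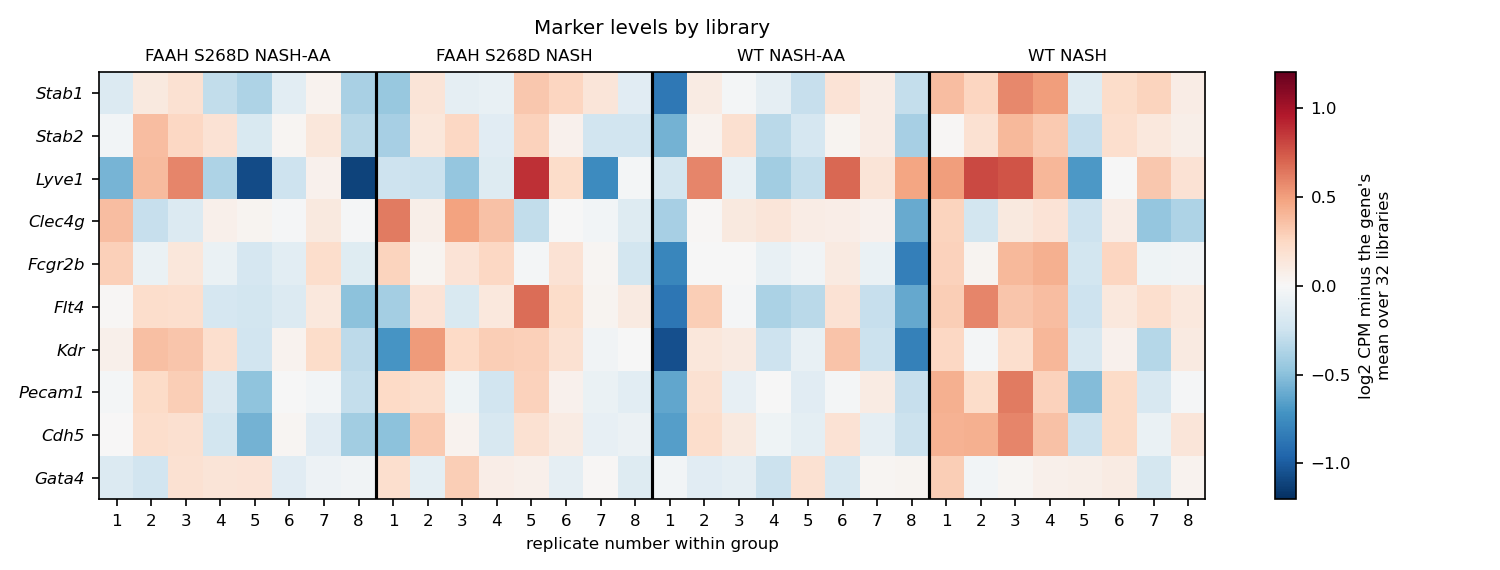
Log2 CPM of each marker minus its mean over 32 libraries (colour, red above and blue below), with one column per library in its group. WT NASH-AA replicate 1 lies below the mean in every row (mean -0.61) and WT NASH replicates 1, 3 and 4 lie above it in every row. Some of these cells, as for Gata4, are near white. The Lyve1 row has the widest swings.

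Other genes of the same cells were read from lists drawn up by name. The diet comparison in WT livers called 4.41% of all tested genes, and 2.97% as lower. It called lower 2 of 20 further sinusoidal and 1 of 25 pan-endothelial genes. Of angiocrine and zonal genes 2 of 15 were called lower, and of transcription factors 1 of 11. In WT livers on NASH-AA against NASH, the median log2 fold change was -0.21 over the 20 tested of 23 further sinusoidal genes (16 negative), -0.24 over 25 pan-endothelial genes (24 negative), -0.20 over 15 angiocrine and zonal genes (13 negative) and -0.18 over 11 transcription factors of liver endothelium (8 negative). Mcam, an adhesion molecule, fell to 8.78 ± 1.72 CPM in WT NASH-AA against 12.6 ± 2.18 in WT NASH (log2 fold change -0.51 ± 0.15 SE, adjusted p = 0.0423 in limma-voom, n = 8 each), and Il33, an alarmin cytokine, fell by 0.66 on the log2 scale (adjusted p = 0.0492). The 2 further sinusoidal genes next in order, Sema6a and Tfec, did not pass (adjusted p 0.0668 and 0.081). Cldn5, a tight junction claudin, was the one pan-endothelial gene called lower, at 5.66 ± 1.22 CPM in WT NASH-AA against 7.32 ± 1.17 in WT NASH. Clec14a, Esam and Tek, the next 3, had log2 fold changes of -0.42, -0.22 and -0.38 and did not pass.

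Among angiocrine and zonal genes Msr1, a scavenger receptor that macrophages also make, fell to 13.5 ± 2.1 CPM in WT NASH-AA against 22.4 ± 7.25 in WT NASH, and Ntn4, a netrin of basement membranes, fell to 12.5 ± 2.7 CPM against 17.2 ± 4.23 in WT NASH (SD, n = 8 each). Bmp6, the endothelial signal for hepcidin, and Efnb2, an arterial ephrin, had -0.38 and -0.35 on the log2 scale and did not pass. Klf4, a transcription factor induced by blood flow, fell to 2.01 ± 0.613 CPM in WT NASH-AA against 2.99 ± 0.58 in WT NASH, and Klf2, its close relative, had -0.24 with no call. Zfpm2, a partner of GATA factors, had -0.48 and Mecom -0.43 on the log2 scale, also not called. Like the calls of Flt4 and Stab1, those of these 6 genes depended on single libraries and on the settings. With 1 library left out, each kept its sign in all 32 fits and its call in between 10 (Il33) and 23 (Klf4) of them. Among the 14 other settings the call was kept in 7 for Il33, Cldn5, Ntn4 and Msr1, in 8 for Mcam and in 9 for Klf4. Tek, Flt1 and Bmp2 each stand on 2 of the endothelial lists. VEGF and angiopoietin ligands and co-receptors gave 0 calls among 10 tested genes, with a median of -0.17. There the co-receptors Nrp2 and Nrp1 pointed in opposite directions, at -0.46 and 0.42 on the log2 scale, with adjusted p-values of 0.0578 and 0.0954 in limma-voom. Vegfd, a ligand of Flt4, averaged 0.645 ± 0.198 CPM in WT NASH-AA and 0.916 ± 0.238 CPM in WT NASH and did not pass.

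Genes of continuous capillaries, which are known to rise in capillarised sinusoids, also gave 0 calls among 16 tested in WT livers. Their median was -0.36 with 14 negative, the same direction as the markers. The 4 with the smallest p were Ackr1 (-0.62), Lama4 (-0.40), Fabp4 (-0.46) and Col4a2 (-0.47 on the log2 scale), with adjusted p-values from 0.0722 to 0.133 in limma-voom. Col4a2, a basement membrane collagen that stellate cells also make, averaged 61.9 ± 13.7 CPM in WT NASH-AA and 84.5 ± 12.6 CPM in WT NASH. Genes of the lymphatic list gave 0 calls among 6, with a median of -0.15 and Itga9 at -0.40. Their levels were very unequal, with Prox1 at 102 ± 16.3, Reln at 86.1 ± 17.9 and Mmrn1 at 0.45 ± 0.274 CPM in WT NASH (SD). Reln is also on the stellate list, and which cells made these RNAs was not tested.

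The genotype comparison on NASH called 9.18% of all tested genes, and 6.29% as lower. The endothelial lists gave few calls there. Called lower were 2 of 20 further sinusoidal, 1 of 15 angiocrine and zonal and 1 of 6 lymphatic genes. Tfec, a transcription factor also made by macrophages, and Ptgs1, a cyclooxygenase, fell among the further sinusoidal genes. Tfec had 1.88 ± 0.148 CPM in FAAH S268D NASH against 2.72 ± 0.525 in WT NASH, and Ptgs1 14.4 ± 2.3 CPM against 18.5 ± 3.54 in WT NASH (SD, n = 8 each). Msr1 fell by 0.92 on the log2 scale (adjusted p = 0.00627 in limma-voom) and Itga9, an integrin of lymphatic endothelium, by 0.46. With 1 library left out the call of Msr1 was kept in 32 of 32 fits, of Tfec in 30, of Ptgs1 in 17 and of Itga9 in 10. Among the 14 other settings the calls of Msr1 and Tfec were kept in 12, that of Ptgs1 in 10 and that of Itga9 in 8. Of 25 pan-endothelial, 16 capillary-type and 11 transcription factor genes none was called, with medians of -0.08, -0.43 and -0.05. On NASH-AA, Cdh13, a cadherin of endothelium, rose to 7.13 ± 0.784 CPM in FAAH S268D NASH-AA against 5.19 ± 0.93 in WT NASH-AA. This was the one call among all endothelial lists there, where 0.658% of all tested genes were called. It was kept in 17 of 32 fits with 1 library left out and in 6 of 14 other settings, where the adjusted p in limma reached 0.659. In FAAH S268D livers the diet comparison called none of the endothelial list genes, and 0.0939% of all tested genes.

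Markers of other liver cells also differed in these comparisons. On NASH, 9.18% of all tested genes were called between the genotypes, and 6.29% as lower. In the genotype comparison on NASH, 10 of 13 monocyte and macrophage markers were called lower. All 13 values were negative, with a median of -1.02 on the log2 scale, while 0 of 10 sinusoidal markers passed, with a median of -0.10. The 13 summed to between 292 and 918 CPM in FAAH S268D NASH and between 472 and 1432 CPM in WT NASH. Cd68, a lysosomal protein of macrophages, fell to 25.9 ± 8.46 CPM in FAAH S268D NASH against 52.4 ± 16 in WT NASH, and Lyz2, macrophage lysozyme, to 103 ± 26.7 CPM against 219 ± 88.6 in WT NASH (SD, n = 8 each). With 1 library left out, the 10 calls were kept in between 21 (Trem2) and 32 of 32 fits, and in 9 to 12 of 14 other settings. Of the called genes above, Msr1 and Tfec are also made by macrophages. Kupffer cell markers gave 1 call of 8 (Cd5l, lower) and a median of -0.38, and stellate cell markers 0 of 12 with a median of -0.31. Lymphocyte markers gave 3 of 7 called lower, but only 4 of the 7 values were negative and 3 were positive (median -0.94). Neutrophil and platelet markers gave 2 of 5 lower (median -0.85), cholangiocyte markers 0 of 6 (median -0.20) and hepatocyte markers 2 of 12 higher (median 0.23).

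The comparison of WT livers on NASH-AA against NASH called 4.41% of all tested genes, and 2.97% as lower. In it, 2 of 13 monocyte and macrophage markers were called lower (Itgam and Cd14), and all 13 values were negative. The 13 had a median of -0.73 and summed to 500 to 713 CPM in WT NASH-AA and 472 to 1432 CPM in WT NASH. Stellate markers gave 1 call of 12 (Rgs5, lower) and a median of -0.27, close to the -0.28 of the sinusoidal markers, and summed to 576 to 800 CPM in WT NASH-AA and 574 to 928 in WT NASH. Kupffer cell markers had 0 calls of 8 and a median of 0.01, at 499 to 635 CPM in WT NASH-AA and 384 to 882 in WT NASH. Cholangiocyte markers gave 1 call of 6 (Cldn4, lower) and a median of -0.75, lymphocyte markers 0 of 7 (median -0.38) and neutrophil and platelet markers 0 of 5 (median -0.25). Spp1 stands on both the cholangiocyte and the macrophage list. It averaged 140 CPM in WT NASH, where the 6 cholangiocyte markers summed to 154 CPM on average. With 1 library left out, the call of Itgam was kept in 21 of 32 fits, of Cd14 in 19 and of Rgs5 in 21, and among 14 other settings in 8, 7 and 9. Cldn4 kept its call in 5 of the 24 such fits in which it was tested and in 4 of 10 other settings. Hepatocyte markers had a median of 0.29 with 10 of 12 positive and 1 called higher (Ttr), and summed to 81153 to 103521 CPM in WT NASH-AA and 70617 to 99598 in WT NASH. No gene of these lists was at 0 in all 32 libraries. WT NASH replicate 5, lowest of its group over the sinusoidal markers, was also lowest there for the summed monocyte and macrophage (472 CPM), Kupffer (384 CPM) and stellate (574 CPM) markers. The part of these other cells in the values of the sinusoidal markers was not tested.

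**Figure D5:**
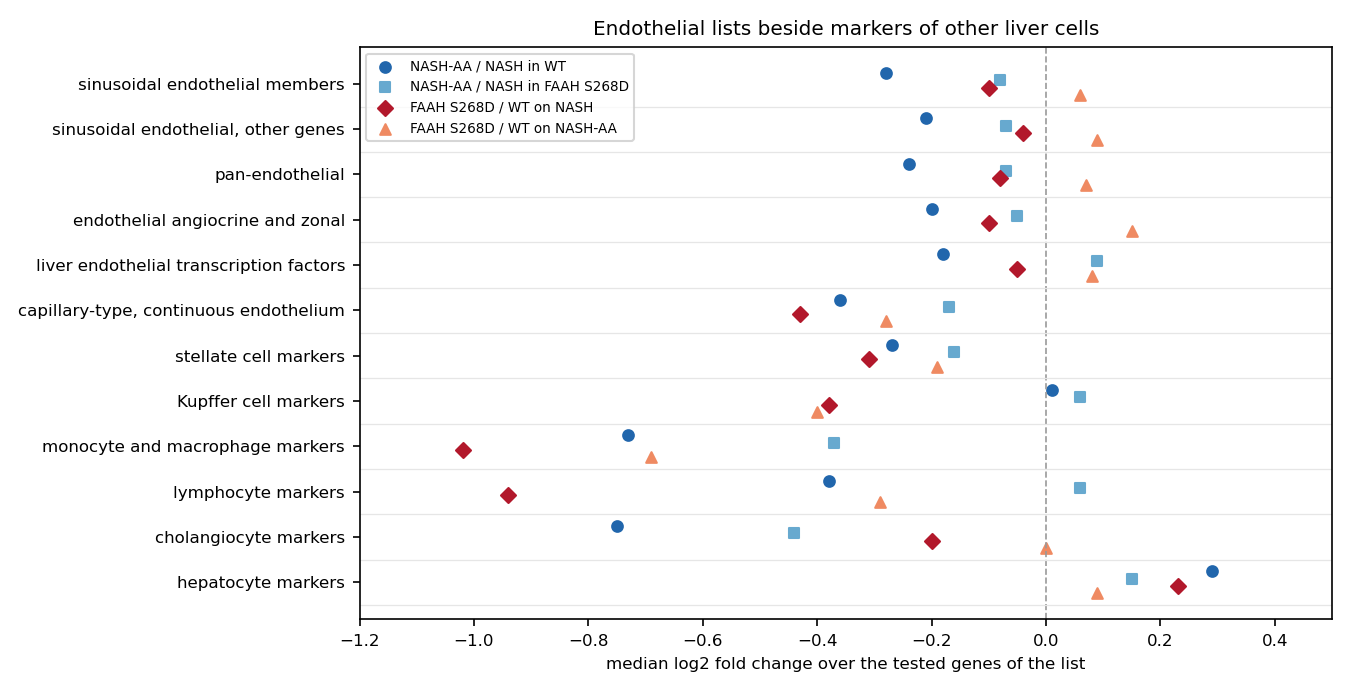
Median log2 fold change (horizontal axis) over the tested genes of each list, for the 4 comparisons of 2 groups. In WT livers the endothelial lists shown lie between -0.36 and -0.18. On NASH the monocyte and macrophage markers lie at -1.02 while the 10 sinusoidal markers lie at -0.10.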

How the data were processed

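Whole-liver polyA RNA was sequenced with the Tecan Universal Plus mRNA-seq kit, per the labels' protocols. The submitters' processing notes name STAR 2.7.10, UMI-tools 1.1.2, Trim Galore 0.6.7 and the build GRCm38. How counts were assigned to genes, and whether strand was used, is not given in the sources used here, so reads of genes that overlap cannot be separated. The authors deposited their estimated counts per gene as 1 unscaled table, with 32 columns, all of them used. A spreadsheet had altered part of it as text. Of 1775584 cells 87.9% were whole, and 11.4% were read as values with 3 decimals, with or without digit-grouping marks. Cells that were not plain numbers, with a comma or repeated dots, made up 52450 (2.95%). Fixed rules restored them, and 3700 cells (0.208%), none in the 10 markers, had 2 possible originals, and the reading nearer to the median of that gene was used. Values were rounded.

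The altered cells kept the unit from being recorded as counts, so limma-voom (limma 3.58.1, R 4.3.3) was the test. Scaling used the trimmed mean of M values (trimming 30% of log ratios and 5% of mean levels) over the tested genes, with a prior count of 0.5. Genes needed 0.437 CPM (10 counts at the median depth) in 8 libraries and 15 counts in total, which left 14903, all 10 markers included. All 32 libraries were fitted with 1 mean per group, with 4 contrasts and the interaction, and Benjamini-Hochberg adjustment ran over all tested genes. Factors over all genes with counts were computed first. The tested genes were used instead, with both results known, because earlier processing of these data had done so, and that choice decides the calls of Flt4 and Stab1. Intervals are at 95%, and counting error is largest in the shallowest library.

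The markers and lists were chosen with earlier results of these data known. All 10 markers are named, with up to 4 genes of the smallest unadjusted p per list, the 8 genes most like the markers' mean, and each marker's most like partner. Positions and exon lengths (union of exons) come from GENCODE M21 and promoters from RefSeq. The fit was tested on simulated counts.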

Additional observations from a re-analysis of the deposited data

Results flagged for a closer look

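One value stood apart from its group. Lyve1 had 24.9 CPM in FAAH S268D NASH replicate 5, the highest of its 8 libraries, of which the next held 15.8 CPM and the lowest 8.07 CPM. The gap to the next library was 0.541 of the group's whole range, above the limit of 0.526 for 8 libraries (Dixon's test). It was the 1 such value among 40 groups of libraries examined, and chance gives about 1 in 20.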

How the results depend on the processing

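The number of markers called in WT livers, 2 with the main settings, changed in most alternatives. It was 4 with total counts alone as scaling and 5 with sample quality weights. It was 0 with median-of-ratios factors, with no filter on low counts, with the replicate block, with the library-number range as a term, within library numbers 1 to 16, within 17 to 32, with limma-trend, with the 2 groups fitted alone, and with scaling factors from all genes with counts, which were computed first and replaced by those over the tested genes after both results were seen. Totals without the 50 most abundant genes were added after seeing the data and called 3 (Stab1, Fcgr2b and Flt4). Leaving out 1 library gave 0 to 5. The call of Stab1 was lost in 21 of 32 such fits (the exceptions were FAAH S268D NASH replicates 1 to 6, FAAH S268D NASH-AA 3 and 5, WT NASH-AA 2 and 6, and WT NASH 5) and that of Flt4 in 23 of 32 (the exceptions were FAAH S268D NASH 1, 3, 4 and 5, FAAH S268D NASH-AA 3 and 8, WT NASH-AA 2 and 6, and WT NASH 5). Where lost under the 9 other settings, the adjusted p lay between 0.0505 and 0.404 for Stab1 and between 0.0504 and 0.411 for Flt4. In the other 4 comparisons 0 markers were called in every setting run. Replicate numbers did not pair the libraries (correlations of same-numbered libraries went down to -0.383, and 5 of 32 libraries were most like one of their own number), and under the replicate block the adjusted p was 0.0767 for Flt4 and 0.0689 for Stab1.

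Of 2290 values of single markers, 2155 kept sign and side of the threshold, 62 lost a call, 9 gained one and 64 changed sign, mostly values near 0. In WT livers Clec4g became -0.10 with total counts, -0.17 within 1 to 16 and -0.06 without the 50 most abundant genes, and within 17 to 32 Lyve1 became 0.17 and Pecam1 0.05. For diet in FAAH S268D, Lyve1 became 0.04, Kdr 0.04, Pecam1 0.01 and Cdh5 0.02 within 1 to 16, Clec4g 0.09 and Gata4 0.06 within 17 to 32, and Clec4g 0.01 with quality weights. For genotype on NASH, Kdr became -0.05 with total counts, -0.01 within 1 to 16 and -0.02 without the 50 most abundant genes, Gata4 0.01 within 1 to 16, and within 17 to 32 Fcgr2b 0.00, Flt4 0.06 and Pecam1 0.07. For genotype on NASH-AA, Stab1 became -0.02 and Gata4 -0.00 both with total counts and without the 50 genes, Cdh5 0.15 within 1 to 16, Stab1 -0.13 and Pecam1 -0.14 within 17 to 32, and Stab1 -0.05 and Pecam1 -0.01 with quality weights. For the interaction, Lyve1 became 0.03 with total counts, 0.01 with the replicate block, 0.55 within 1 to 16, 0.15 with quality weights and 0.00 without the 50 genes, and within 17 to 32 Stab1 became -0.10, Pecam1 -0.21 and Cdh5 -0.17. With 1 library left out the range was -0.03 to 0.10 for Clec4g in WT livers, -0.07 to 0.01 for Gata4 with diet in FAAH S268D, -0.07 to 0.01 for Gata4 with genotype on NASH, -0.11 to 0.04 (Cdh5), -0.02 to 0.11 (Pecam1) and -0.07 to 0.07 (Stab1) with genotype on NASH-AA, and -0.21 to 0.10 for Lyve1 in the interaction. The cause was not tested.

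Total counts moved the median of all genes to -0.12 in WT livers, -0.14 for genotype on NASH and 0.11 for the interaction, and relative to it the markers' median was -0.28, -0.10 and 0.20. Of genes called in WT livers 67.3% were lower, against 92.6% with total counts and 83.3% without the 50 genes. For genotype on NASH they were 68.6%, 93.2% and 89.6%, and for diet in FAAH S268D 71.4%, 64% and 47.4%. Genes called in WT livers (657) became 1680 with total counts, 182 with no filter, 17 with the replicate block, 370 with the range term, 0 within 1 to 16, 167 within 17 to 32, 247 with limma-trend, 3759 with quality weights and 1092 with 2 groups alone. Genes called for diet in FAAH S268D (14) became 25 with total counts, 6 with no filter, 8 with the block, 0 and 376 within the ranges, 41 with limma-trend, 1062 with quality weights and 3 with 2 groups alone. Genes called for genotype on NASH (1368) became 2411 with total counts, 906 and 15 within the ranges and 68 with 2 groups alone, and on NASH-AA (98) 63 with the block, 17 and 32 within the ranges, 756 with quality weights and 627 with 2 groups alone. Leaving out 1 library gave 64 (without WT NASH-AA replicate 5) to 2190 (without WT NASH replicate 5) in WT livers, 6 to 366 for diet in FAAH S268D, 494 to 2643 for genotype on NASH and 66 to 186 on NASH-AA. Depth limits single values most in the library of 3851626 counts.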
